A study of Mus musculus with 2 samples.

Results

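Genes that mark epithelial or mesenchymal cells were followed in tumours of EMT6, a mouse mammary carcinoma line used as a model of triple-negative breast cancer. They were Epcam, the keratins Krt7, Krt8, Krt18, Krt19, Krt14 and Krt5, the cadherins Cdh1 and Cdh2, and Vim. These are 10 genes of the 55450 in the files, taken by symbol with earlier results of these data known. The data were single-cell RNA counts from subcutaneous EMT6 tumours of BALB/c mice in 2 libraries, each made from 3 mice pooled into 1 sample. Mice of the library named Olaparib + LLY-283 received the PARP inhibitor olaparib at 50 mg/kg and the PRMT5 inhibitor LLY-283 at 50 mg/kg in cycles of 3 days on and 4 days off, and mice of the library named Combo received the same drugs and 200 µg of anti-PD-1 antibody every 3 days. Both groups therefore had olaparib and LLY-283, and no untreated library was analysed here. With 1 library per group, the treatment cannot be told apart from the mice pooled or from the library, and no test between the libraries was possible.

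Keratins form filaments only as pairs of a type I and a type II chain. Krt8 (type II) and Krt18 (type I) encode the pair of simple epithelia such as the luminal cells of the mammary gland, Krt7 (type II) and Krt19 (type I) are further chains of simple epithelia, and Krt5 (type II) and Krt14 (type I) encode the pair of basal and myoepithelial cells. Epcam encodes an adhesion molecule of epithelial cells, Cdh1 encodes E-cadherin of epithelial junctions, Cdh2 encodes N-cadherin of mesenchymal and neural cells, and Vim encodes vimentin, the filament protein of mesenchymal cells. In an epithelial-mesenchymal transition, cells lose E-cadherin and other junction genes and gain vimentin, and carcinoma cells can hold keratins and vimentin together.

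Each captured transcript carried a unique molecular identifier (UMI), and the UMIs of a gene were summed over the cells of a set and divided by all UMIs of that set and expressed per 1e6 UMIs, as CPM. Tumour cells were set per cell, as cells with at least 2 UMIs of Krt8 and Krt18 together and with Tyrobp and Ptprc, genes of leukocytes, under 0.02% of their UMIs. This rule found 9566 of 13973 cells (68.5%) in Olaparib + LLY-283 and 2832 of 5687 cells (49.8%) in Combo. The rule used Krt8 and Krt18, so their levels in tumour cells are a description, and the other 8 genes were free of it. Fibroblasts (246 and 68 cells), endothelial cells (44 and 15), macrophages (1045 and 691) and neutrophils (673 and 1416) were clusters named from marker genes. Where a pair of values is given, Olaparib + LLY-283 comes first and Combo after it.

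The depth differed between the libraries. Tumour cells held a median of 9362 UMIs in Olaparib + LLY-283 and 46694.5 in Combo, so shares of cells with a UMI were compared after each cell had been thinned at random to the same number of UMIs. The 95% intervals of CPM (exact Poisson) and of shares (exact Clopper-Pearson) cover counting error only. The libraries had 39 cell barcodes in common. In tumour cells, the 12 fibroblast markers summed to 690 and 902 CPM, against 29538 and 31070 CPM in fibroblasts, the 10 endothelial markers to 12.4 and 10.4 CPM, against 3850 and 9924 CPM in endothelial cells, and the 10 macrophage markers to 82.7 and 97.6 CPM. The sets were not fully separate, since 62 of the 246 fibroblasts and 35 of the 68, and 17 of the 44 endothelial cells and 3 of the 15, also met the tumour rule. In the clusters made mostly of tumour cells, 1520 and 79 cells fell outside the rule, 1406 and 69 of them because they held under 2 keratin UMIs.

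The tumour cells carried much Vim and the keratin pair by which they were chosen, and little of the other epithelial genes. Vim was the highest of the 10 genes, at 6574 CPM in Olaparib + LLY-283 (697764 UMIs) and 6204 CPM in Combo (847929 UMIs). Krt8 followed at 851 CPM (845 to 856) and 794 CPM (789 to 799), and Krt18 at 108 CPM (106 to 110) and 78.5 CPM (77.1 to 80.0). Krt7, Krt14, Epcam and Krt19 lay between 1.24 and 6.26 CPM, and Cdh1, Cdh2 and Krt5 at 0.154 CPM or less in both libraries. These are levels from 3′ counting, in which 1 transcript gives 1 UMI whatever its length, so no correction for length was made between genes.

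**Figure D1:**
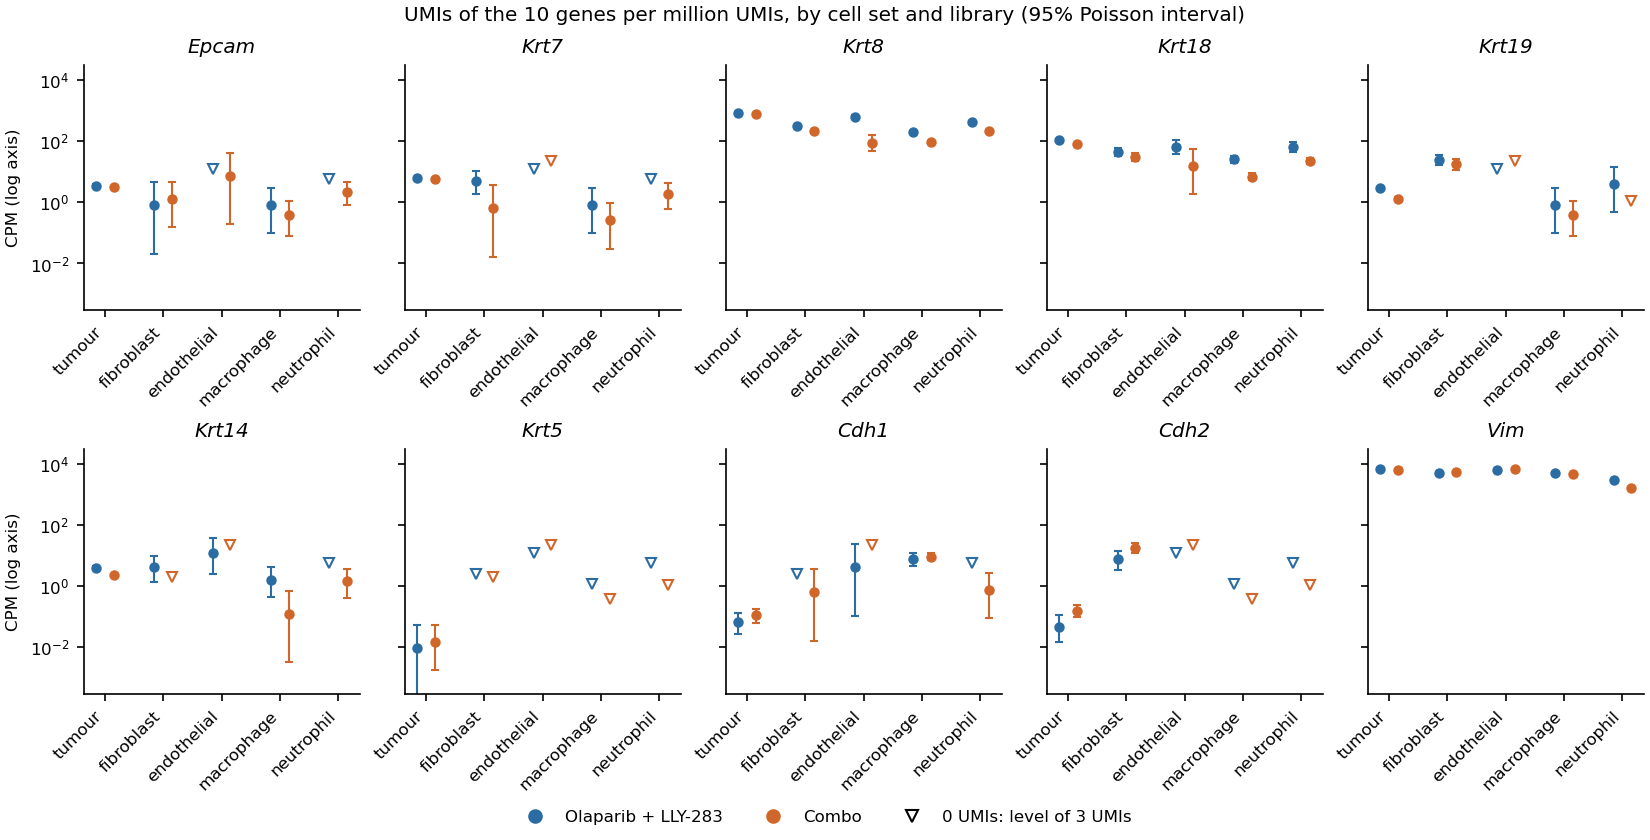
Levels of the 10 genes in CPM on a log axis in tumour cells, fibroblasts, endothelial cells, macrophages and neutrophils of each library. Points are sums over all cells of a set, bars are exact 95% Poisson intervals, and triangles mark sets with 0 UMIs, drawn at the level that 3 UMIs would have; Vim lies between 1618 and 6918 CPM in each set, while of these sets Cdh2 is above 0 UMIs in tumour cells and fibroblasts alone.

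Vim was found throughout the tumour cells. After thinning to 5000 UMIs (8168 and 2698 cells, with 1398 and 134 shallower cells left out), a Vim UMI was present in every cell of both libraries. For 0 cells without Vim, the exact upper limit of the share was 0.0452% and 0.137%. The median was 32 Vim UMIs per cell in Olaparib + LLY-283, with the 5th and 95th percentiles at 18 and 54, and 30 in Combo, with percentiles at 15 and 52.15. Vim did not mark tumour cells, as it stood at 5088 and 5220 CPM in fibroblasts, 6022 and 6918 CPM in endothelial cells, 5007 and 4602 CPM in macrophages and 2866 and 1618 CPM in neutrophils.

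Krt8 and Krt18, by which the tumour cells were chosen, had the most UMIs of the 6 keratins in them. The type II gene Krt8 made up 87.6% of the UMIs of the 6 keratins in tumour cells of Olaparib + LLY-283 and 90.1% in Combo, and there were 7.91 (7.75 to 8.06) and 10.1 (9.91 to 10.3) Krt8 UMIs per Krt18 UMI. At 5000 UMIs per cell, 95.9% and 92.3% of tumour cells held a Krt8 UMI, with a median of 4 and 3 per cell and at most 28 and 30. Krt18 was found in 32.6% and 25.6% of these cells, with at most 22 and 8 UMIs in a cell. Without thinning, the shares with Krt18 were 48.2% and 67.7%, so the order of the libraries turned with depth. The shares with Krt8 and Krt18 are raised by the rule. In the clusters made mostly of tumour cells, no keratin UMI was asked of a single cell. There, 609 of 8545 and 223 of 2496 cells held no Krt8 UMI at 5000 UMIs.

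Krt8 and Krt18 lie 23.7 kb apart on opposite strands of the mouse genome (mm10, Krt8, ENSMUSG00000049382, chr15:101996698-102004482, minus strand, and Krt18, ENSMUSG00000023043, chr15:102028180-102032027, plus strand). Epcam (ENSMUSG00000045394) is at chr17:87635979-87651129 on the plus strand and Vim (ENSMUSG00000026728) at chr2:13573927-13582826 on the plus strand. The 250 bases before the start of these 4 genes in RefSeq are shown because they are the keratin pair that went together in single cells, the gene found in all tumour cells thinned to 5000 UMIs and the scarce epithelial adhesion gene. The sequences are from RefSeq (GRCm38.p6), read 5′ to 3′ on the strand of the gene, at chr15:102004343-102004592 for Krt8, chr15:102027966-102028215 for Krt18, chr17:87635729-87635978 for Epcam and chr2:13574061-13574310 for Vim. Capitals mark the E-box CAGGTG or its reverse complement CACCTG, the letters bound by repressors of the Snail and Zeb families.
Krt8: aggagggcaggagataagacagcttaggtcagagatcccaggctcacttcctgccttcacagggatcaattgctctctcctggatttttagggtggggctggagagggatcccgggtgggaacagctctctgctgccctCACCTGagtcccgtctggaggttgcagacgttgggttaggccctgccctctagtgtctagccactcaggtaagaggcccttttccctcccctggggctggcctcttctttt
Krt18: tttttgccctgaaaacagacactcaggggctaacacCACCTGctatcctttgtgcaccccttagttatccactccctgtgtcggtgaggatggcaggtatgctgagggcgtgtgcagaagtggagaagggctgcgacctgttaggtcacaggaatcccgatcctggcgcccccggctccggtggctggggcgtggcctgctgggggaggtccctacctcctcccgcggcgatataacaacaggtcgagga
Epcam: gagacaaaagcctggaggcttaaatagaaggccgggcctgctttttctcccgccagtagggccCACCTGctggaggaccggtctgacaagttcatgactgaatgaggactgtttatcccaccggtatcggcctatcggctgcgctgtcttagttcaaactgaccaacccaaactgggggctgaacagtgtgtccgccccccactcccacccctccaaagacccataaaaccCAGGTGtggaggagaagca
Vim: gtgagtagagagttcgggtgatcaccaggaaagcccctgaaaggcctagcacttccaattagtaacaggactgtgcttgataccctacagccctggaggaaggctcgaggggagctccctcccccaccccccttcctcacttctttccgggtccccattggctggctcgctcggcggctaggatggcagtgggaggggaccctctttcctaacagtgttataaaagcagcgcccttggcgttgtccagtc
Promoters of 7 of the 10 genes were in the table, without Krt19, Cdh1 and Cdh2. In windows from 250 bases before to 50 bases after the start, with both strands searched, the E-box was found 2 times for Epcam, starting at −187 and −19, and 1 time each for Krt8 at −111, Krt18 at −214, Krt7 at −44 and Krt5 at −128. These letters were not in the windows of Krt14 and Vim. The Krt14 window (chr11:100205981-100206280) lay inside the annotated gene (chr11:100203162-100207548, minus strand). The windows of Vim and Krt7 (chr15:101412153-101412452, gene from 101411043, plus strand) also lay inside the annotated genes. For these genes the bases before the outermost annotated start were not searched. The windows of Krt8 and Krt18 lay inside the annotated genes in part. The annotated start of Krt8 (102004482, minus strand) and that of Krt18 (102028180, plus strand) fall within the printed bases. The E-box of Krt8 at −111 lies inside the annotated gene, and that of Krt18 lies before it. The same letters were in 20.2% of 32851 promoters of this length. The letters TATAAA or TTTATA, in 13.6% of promoters, were in the window of Vim at −32 and in that of Krt8 at −3 and −1, as a pair of overlapping matches on both strands that run past the printed bases. These are matches of letters and not measured binding.

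The keratins were counted together with Vim in nearly all tumour cells at this depth. At 5000 UMIs per cell, 7910 of 8168 cells of Olaparib + LLY-283 (96.8%, 96.4 to 97.2) and 2515 of 2698 of Combo (93.2%, 92.2 to 94.1) held a UMI of Vim and of at least 1 of the 6 keratins. The tumour rule asks for keratin UMIs and so raises this share. In all cells of the clusters in which over 50% of cells met the rule, where no keratin UMI was asked of a single cell, the shares were 93.9% and 92.0%. The share follows depth, since it was 59.2% and 51.5% at 1000 UMIs per cell and 99.6% and 98.3% at 10000.

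**Figure D2:**
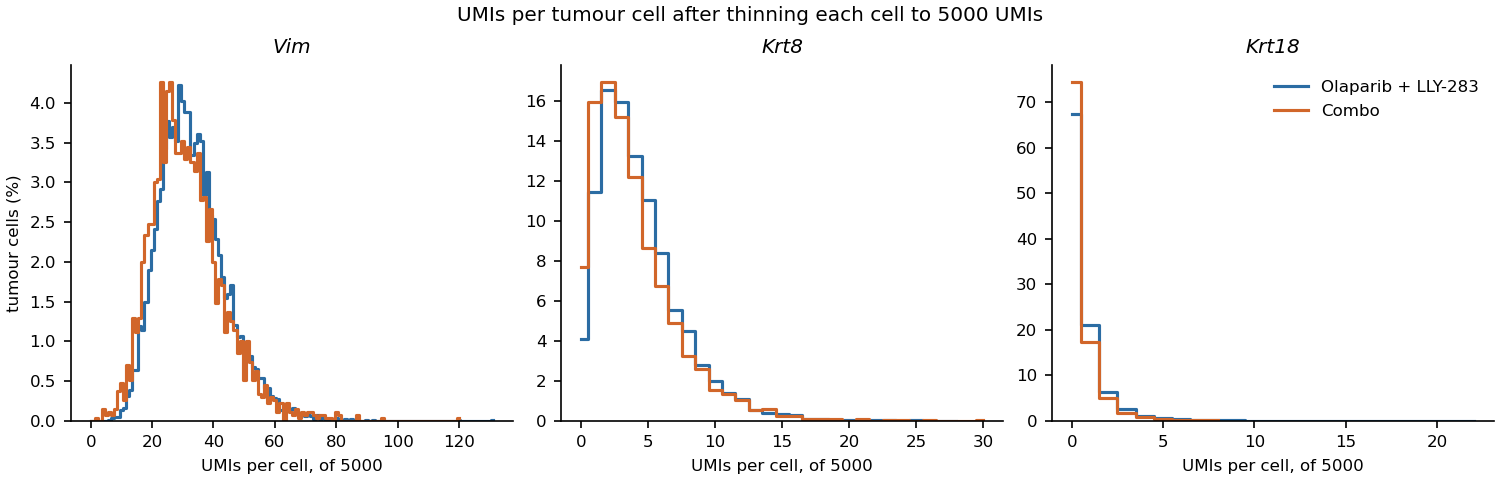
Share of tumour cells (percent) by the number of UMIs of Vim, Krt8 and Krt18 per cell, after thinning each cell to 5000 UMIs, for each library. Vim has medians of 32 and 30 UMIs with no cell at 0, Krt8 peaks at 2 UMIs, and most cells have no Krt18 UMI.

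Within tumour cells, Krt18 was found more often in cells with more Krt8. The tumour rule sets a sum of Krt8 and Krt18, so a cell without Krt8 had to hold Krt18 before thinning, and values over rule cells are conditioned on both genes. At 5000 UMIs per cell, Krt18 was found in 19.9% of cells without a Krt8 UMI in Olaparib + LLY-283, in 32.0% of cells with 4 or 5 Krt8 UMIs and in 74.5% of cells with 13 to 20. In Combo the shares were 10.1%, 26.9% and 70.8%. In all cells of the tumour clusters, where no keratin UMI was asked of a single cell (an alternative added after the values had been seen), the shares were 12.2%, 33.0% and 75.6% (8545 cells) and 9.42%, 23.6% and 58.5% (2496 cells), and r was 0.327 and 0.274. Among rule cells, the cells with 21 or more Krt8 UMIs were few, and Krt18 was in 13 of 13 and 5 of 6 of them. Pearson r of both genes over rule cells (log values) was 0.284 (8168 cells) and 0.308 (2698 cells), given as a description of cells that share a library and a depth. Among 5166 genes seen in at least 10% of these cells in both libraries, Krt18 was the gene most like Krt8, and Krt8 the gene most like Krt18, and no other gene reached r of 0.2 with either in both libraries.

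**Figure D3:**
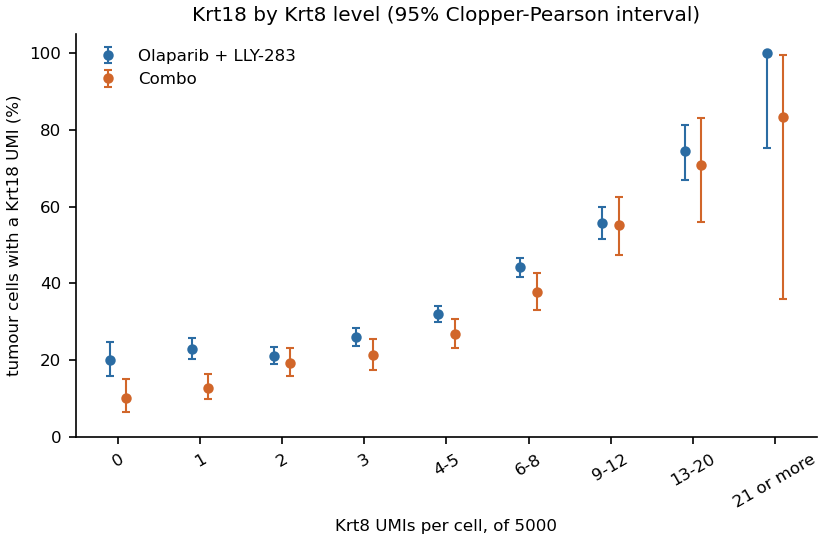
Share of tumour cells with a Krt18 UMI (percent, exact 95% Clopper-Pearson interval) by the number of Krt8 UMIs in the cell, at 5000 UMIs per cell, for each library. The share goes from 19.9% and 10.1% in cells without Krt8 to 74.5% and 70.8% in cells with 13 to 20 Krt8 UMIs, and the last point of each library rests on 13 and 6 cells. Cells were chosen by the sum of both genes.

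Vim did not run opposite to the keratins. Its mean was 31.5 UMIs in cells without Krt8 and 38.0 in cells with 13 to 20 Krt8 UMIs in Olaparib + LLY-283, and 30.4 and 34.8 in Combo. Pearson r of Vim with Krt8 was 0.117 and 0.132 and with Krt18 0.059 and 0.078, which is weak in sparse counts. The genes most like Vim were Gapdh, encoding a glycolytic enzyme (r = 0.362 and 0.433), Lgals3, encoding galectin-3 (0.334 and 0.314), and Pgk1, encoding another glycolytic enzyme (0.286 and 0.324), among 9 genes at 0.2 or more in both libraries. No gene reached 0.2 with Epcam, Krt7, Krt19, Krt14, Krt5, Cdh1 or Cdh2.

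The minor keratins were sparse. Krt7, the type II chain of simple epithelia, stood at 6.26 CPM (5.79 to 6.75, 664 UMIs) and 5.56 CPM (5.17 to 5.97, 760 UMIs). Krt14, the basal type I chain, stood at 3.98 CPM (3.61 to 4.37, 422 UMIs) and 2.22 CPM (1.98 to 2.49, 304 UMIs). Krt19, the type I chain of simple epithelia, stood at 2.87 CPM (2.56 to 3.22, 305 UMIs) and 1.24 CPM (1.06 to 1.45, 170 UMIs). The order of Krt7 above Krt14 above Krt19 was the same in both libraries, and each step lay outside the counting intervals. Krt5, the usual type II partner of Krt14, had 1 UMI in 9566 tumour cells and 2 UMIs in 2832, and 0 UMIs in fibroblasts, endothelial cells, macrophages and neutrophils of both libraries. Krt14 was thus counted in tumour cells almost without Krt5.

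At 5000 UMIs per cell, Krt7 was found in 3.05% (2.69 to 3.44) and 2.48% (1.93 to 3.14) of tumour cells, Krt14 in 1.76% and 0.741%, and Krt19 in 1.38% and 0.482%. At 1000 UMIs per cell, the shares of Krt7 were 0.535% and 0.683%, and those of Krt14, Krt19 and Epcam lay between 0.180% and 0.441%. Of Combo neutrophils, which should lack these genes, 0.235% (0.0485 to 0.686) had a Krt7 UMI at that depth, 0.235% an Epcam UMI, and 0 of 1276 a Krt14 or a Krt19 UMI, with an exact upper limit of 0.289%. The share of Epcam in Combo tumour cells, 0.180% (0.0584 to 0.419), was below that of neutrophils, with overlapping intervals. For the other 3 genes in Combo the intervals of tumour cells and neutrophils overlapped as well. Over all UMIs, Epcam stood at 3.10 CPM (2.81 to 3.40) in Combo tumour cells. It stood at 2.17 CPM (0.797 to 4.72) in Combo neutrophils and at 0.381 CPM (0.0785 to 1.11) in Combo macrophages. The part of free RNA in these UMIs was not tested. Epcam, Krt7, Krt19 or Krt14 was found in 641 cells (7.85%) and 139 cells (5.15%) at 5000 UMIs, exactly 2 of them in 25 and 4 cells, and 3 or more in 0 cells. Krt19 and Krt14 were counted together in 0 cells of either library, where the product of their shares gives 1.99 and 0.0964 cells. Krt18 and Krt19 were together in 53 cells against a product of 36.8 in Olaparib + LLY-283 and in 5 against 3.32 in Combo.

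The epithelial adhesion genes were scarce. Epcam had 373 UMIs (3.51 CPM, 3.17 to 3.89) and 423 UMIs (3.10 CPM, 2.81 to 3.40) in tumour cells, and at 5000 UMIs per cell it was in 1.96% and 1.59% of them. Its level did not differ from that of Krt14 beyond counting error in Olaparib + LLY-283 and was above it in Combo. Cdh1 had 7 UMIs in 7 cells of Olaparib + LLY-283 and 15 UMIs in 15 cells of Combo (0.0660 and 0.110 CPM). Some leukocytes had more of it. Cdh1 stood at 54.2 and 72.4 CPM in dendritic cells (9 UMIs in 8 of 77 cells and 32 in 14 of 42), and at 7.67 CPM (19 UMIs in 16 cells) and 9.27 CPM (73 UMIs in 52 cells) in macrophages. Epcam also stood higher in dendritic cells, at 12.1 CPM (2 UMIs, 1.46 to 43.5) and 58.8 CPM (26 UMIs in 7 of 42 cells, 38.4 to 86.2).

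Cdh2 was counted mostly in fibroblasts. Tumour cells had 5 Cdh2 UMIs (0.0471 CPM) in Olaparib + LLY-283 and 21 (0.154 CPM) in Combo, against 9 UMIs (7.49 CPM) and 27 UMIs (17.8 CPM) in the far smaller sets of fibroblasts, where Cdh2 was seen in 9 of 246 and 20 of 68 cells. Of the 21 Combo UMIs, 20 lay in 14 of the 35 fibroblast-cluster cells that also met the tumour rule, and 1 in the 2489 rule cells of the tumour clusters. In Olaparib + LLY-283, 2 of the 5 UMIs lay in fibroblast-cluster cells and 3 in the 9051 rule cells of the tumour clusters. Cdh2 had 0 UMIs in endothelial cells, macrophages and neutrophils.

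Against fibroblasts, the question was which of the genes set the carcinoma cells apart from mesenchymal cells of the same tumours. A gene was compared where it had at least 20 UMIs over both sets, and called higher or lower past a 2-fold ratio of CPM with 0.5 UMIs added. In Olaparib + LLY-283, 5 of the 8 free genes were compared, 1 was called higher (Epcam) and 1 lower (Krt19), where 9.63% of 15490 genes were called higher and 21.5% lower. In Combo, 6 were compared, 2 were called higher (Krt7 and Krt14) and 2 lower (Krt19 and Cdh2), where 11.9% of 16305 genes were called higher and 22.1% lower. The higher calls came from at most 1 fibroblast UMI each.

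Epcam had 1 UMI in fibroblasts of Olaparib + LLY-283 and 2 in those of Combo, giving log2 ratios of 1.50 (−0.41 to 7.39) and 0.91 (−0.63 to 4.28). Krt7 had 6 and 1 fibroblast UMIs, giving 0.21 (−0.80 to 1.78) and 2.49 (0.59 to 8.38). The intervals of Epcam and of Krt7 in Olaparib + LLY-283 include equal levels. Krt14 had 5 fibroblast UMIs in Olaparib + LLY-283 (log2 ratio −0.20), and 0 in Combo. There the exact interval of fibroblasts reached 2.43 CPM, above the 2.22 CPM of tumour cells, so equal levels are not excluded, and the call of Krt14 was lost (0.98 on the log2 scale) when fibroblasts that met the tumour rule were left out. Vim was slightly higher in tumour cells, by 0.37 (0.33 to 0.41) and 0.25 (0.22 to 0.28) on the log2 scale. Krt8, which chose the tumour cells together with Krt18, stood at 300 and 210 CPM in fibroblasts, and Krt18 at 44.9 and 29.7 CPM. In the fibroblasts that did not meet the tumour rule, Krt8 was at 84.2 CPM (184 cells) and 31.6 CPM (33 cells). The rule asks for 2 keratin UMIs, and these cells held at most 2 Krt8 UMIs each. Their Krt8 level is thus lowered by the selection and is not a measure of fibroblasts as a whole.

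Krt19 was lower in tumour cells than in fibroblasts in both libraries. It stood at 25.0 CPM (30 UMIs in 14 of 246 cells) in fibroblasts of Olaparib + LLY-283 and at 17.8 CPM (27 UMIs in 4 of 68 cells) in Combo, and the log2 ratios of tumour cells over fibroblasts were −3.14 (−3.66 to −2.53) and −3.86 (−4.43 to −3.20). Single fibroblasts held much of it, with 10 UMIs in 1 cell of Olaparib + LLY-283 and 24 of the 27 UMIs in 1 cell of Combo, a cell of 24989 UMIs with 1 Krt8 UMI that did not meet the tumour rule. Without these cells, an alternative chosen after the values had been seen, the log2 ratio was −2.58 (−3.20 to −1.81) in Olaparib + LLY-283. It was −0.91 (−2.26 to 1.60) in Combo, where the lower call thus rested on 1 cell. Cdh2 was lower in Combo tumour cells, with a log2 ratio of −6.85 (−7.75 to −5.98), and was not compared in the other library, where both sets together held under 20 UMIs.

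**Figure D4:**
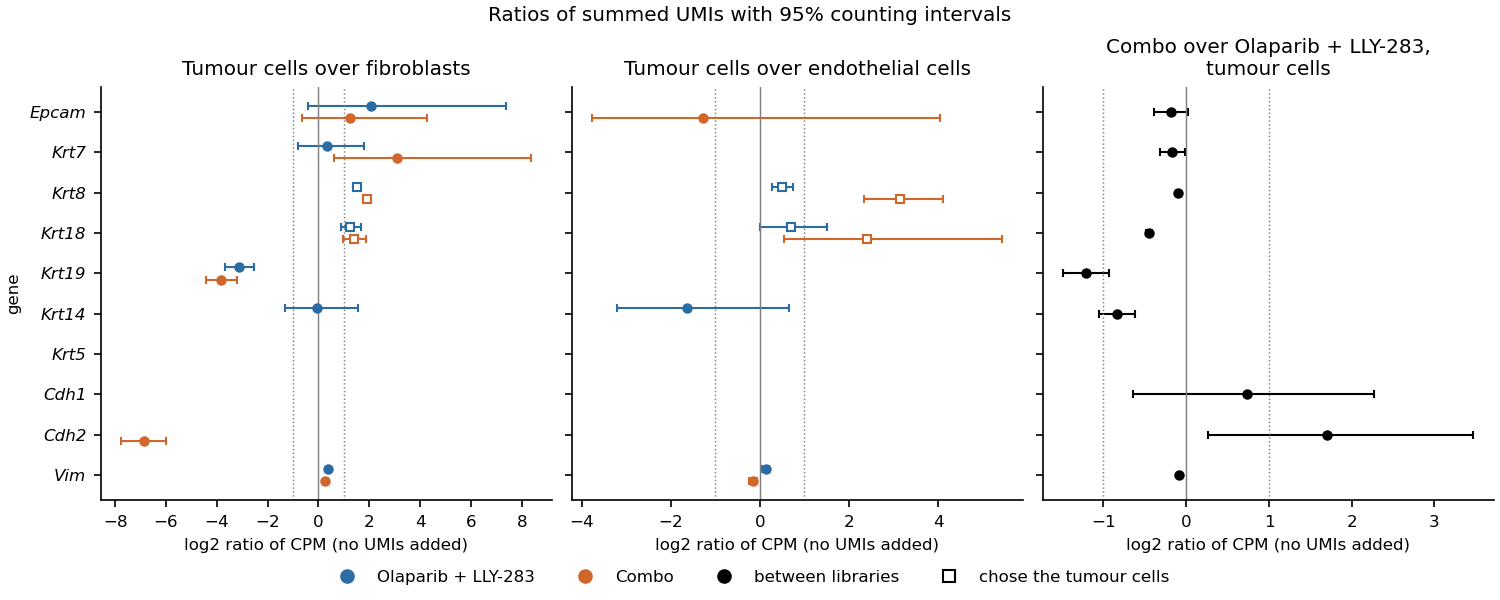
Log2 ratios of CPM of tumour cells over fibroblasts, of tumour cells over endothelial cells and, for tumour cells, of Combo over Olaparib + LLY-283, with exact 95% counting intervals. No UMIs were added for the plot, so points of genes with few UMIs differ from the ratios in the text. Open squares mark the genes that chose the tumour cells; Krt19 lies below 0 against fibroblasts in both libraries, and Vim lies near 0 in each comparison.

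Against endothelial cells, the counts were too small for most genes. In Olaparib + LLY-283, 5 of the 8 genes were compared, 1 was called higher (Krt7) and 1 lower (Krt14), where 5.14% of 15341 genes were called higher and 37.1% lower. In Combo, 6 were compared, 0 were called higher and 3 lower (Epcam, Krt19 and Cdh2), where 12.9% of 16174 genes were called higher and 47.6% lower. The endothelial cells had 0 UMIs of Krt7, Krt19 and Cdh2 in both libraries, 3 and 0 of Krt14 and 0 and 1 of Epcam, so the calls of Krt7, Krt19 and Cdh2 came from the 0.5 UMIs added to unequal totals and give no direction. The log2 ratio of Vim was 0.13 (0.05 to 0.20) in Olaparib + LLY-283 and −0.16 (−0.25 to −0.06) in Combo, both within 2-fold, and the sign in Combo turned to 0.23 with the mean of single-cell CPM and was also above 0 when libraries were scaled by the median of ratios. Krt8 and Krt18 stood at 602 and 66.0 CPM in endothelial cells of Olaparib + LLY-283 and at 89.7 and 15.0 CPM in those of Combo (12 and 2 UMIs). Of these cells, 17 of 44 and 3 of 15 also met the tumour rule. Without them, the log2 ratios over endothelial cells went from 0.49 to 2.70 for Krt8 and from 0.66 to 3.97 for Krt18 in Olaparib + LLY-283. In Combo they went from 3.09 to 3.64 and from 2.07 to 4.00. Leaving these cells out selects by the same 2 genes.

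Keratin UMIs were also counted in leukocytes. Krt8 stood at 203 and 95.6 CPM in macrophages and at 405 and 211 CPM in neutrophils. Krt18 stood at 25.8 and 6.85 CPM in macrophages and at 64.2 and 22.4 CPM in neutrophils. Thinned to 1000 UMIs, 56.0% and 49.1% of tumour cells had a Krt8 UMI, against 17.2% and 15.5% of fibroblasts, 17.7% and 11.5% of macrophages and 30.3% and 17.9% of neutrophils. Cells under 1000 UMIs were left out of these shares. They cover 66 of 673 and 1276 of 1416 neutrophils, 853 of 1045 and 672 of 691 macrophages and 239 of 246 and 58 of 68 fibroblasts. The interval was 19.6% to 42.9% for neutrophils of Olaparib + LLY-283 and 7.35% to 27.4% for Combo fibroblasts. The median depths before thinning were 3903 and 21085 UMIs in fibroblasts, 1923 and 10588 in macrophages and 652 and 1897.5 in neutrophils.

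The number of Krt8 UMIs per Krt18 UMI was also taken in the other sets. It was 6.69 (5.01 to 9.07) in fibroblasts, 7.84 (6.04 to 10.3) in macrophages and 6.30 (4.35 to 9.40) in neutrophils of Olaparib + LLY-283, against 7.91 in tumour cells. In Combo it was 7.07 (5.16 to 9.88), 13.9 (10.6 to 18.7) and 9.40 (7.23 to 12.4), against 10.1. The intervals of these sets included the ratio of tumour cells except in Combo fibroblasts, which lay below it, and Combo macrophages, which lay above it. Most fibroblast UMIs of both genes lay in cells that also met the tumour rule and were counted in both sets. These cells held 302 of 361 Krt8 and 49 of 54 Krt18 UMIs in Olaparib + LLY-283. In Combo they held 304 of 318 and 40 of 45. The fibroblast ratio is thus not independent of that of tumour cells. The part of free RNA in the keratin UMIs of the other cells was not tested.

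Between the libraries, the levels of most of the genes in tumour cells were within 2-fold. Of the 9 genes compared, 1 was past 2-fold higher in Combo (Cdh2), 1 lower (Krt19) and 7 within, where 4.95% of 17437 genes were past 2-fold in either direction. The log2 ratio of Combo over Olaparib + LLY-283 was −0.08 for Vim, −0.10 (−0.11 to −0.09) for Krt8 and −0.45 (−0.49 to −0.42) for Krt18. It was −0.17 (−0.32 to −0.02) for Krt7, −0.18 (−0.39 to 0.02) for Epcam, −0.84 (−1.06 to −0.62) for Krt14 and −1.21 (−1.49 to −0.93) for Krt19. The interval of Krt19 spans 2-fold. Cdh2, at 1.60 (0.26 to 3.47), was set by the 20 UMIs of fibroblast-cluster cells described above. The spread between mice is not known, as each library is a pool.

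The genes differed among clusters of tumour cells, which were made without these 10 genes. There were 11 clusters in which over 50% of cells met the tumour rule, and 11 and 9 of them held at least 100 cells of the library. The levels given are over all cells of a cluster. Krt19 was the most uneven of the 7 genes with over 100 UMIs in tumour cells. It was highest in the cluster led by Pgf, Adm, Dusp4, Hilpda and Mmp13, at 7.95 CPM (6.75 to 9.29) and 7.21 CPM (5.93 to 8.68), against a median over clusters of 1.59 and 0.441 CPM. This cluster held 20.5% and 15.1% of the cells of the tumour clusters but 50.6% and 65.7% of their Krt19 UMIs, which came from 106 and 34 cells with at most 6 and 11 UMIs each. The counting intervals of the libraries overlapped within this cluster. Pgf encodes a growth factor of the VEGF family, Adm the peptide adrenomedullin, and Adm and Hilpda are known targets of hypoxia.

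Krt18 was highest in the same cluster, at 194 CPM and 155 CPM, against medians of 78.1 and 62.8 CPM. Its lowest level was 57.0 CPM in the cluster led by the histone gene Hist1h2ae in Olaparib + LLY-283. In Combo it was 38.0 CPM in the cluster led by Aspn, Dcn, Mgp, Omd and Anpep, the first 4 of which encode matrix proteins. Krt8 was lowest in that matrix-gene cluster in both libraries, at 632 and 518 CPM. It was highest at 1021 CPM in the Pgf cluster of Olaparib + LLY-283 and at 953 CPM in the cluster led by Cdc20, Cdkn3 and Pttg1, genes of mitosis, in Combo. Vim was highest in the Pgf cluster as well, at 7821 and 7773 CPM, and spanned 1.42-fold and 1.38-fold over the clusters, less than the 1.61-fold and 1.84-fold of Krt8 and the 3.40-fold and 4.07-fold of Krt18.

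The remaining genes were highest in other clusters. Epcam was highest in the matrix-gene cluster in both libraries, at 4.85 CPM (3.42 to 6.69) and 4.31 CPM (3.32 to 5.51). The lowest cluster, at 2.52 CPM (1.51 to 3.93), overlapped it within counting error in Olaparib + LLY-283, and at 2.24 CPM (1.67 to 2.93) did not in Combo. Krt14 was highest at 8.24 CPM (6.42 to 10.4) in the Cdc20 cluster of Olaparib + LLY-283 and at 5.19 CPM (3.80 to 6.92) in the cluster led by Gm17056 in Combo, where 13 of 46 UMIs were in 1 cell. Krt7 reached 11.4 CPM in the Gm17056 cluster of Combo, where 1 cell held 40 of 101 UMIs, and without that cell the level was 6.96 CPM, below the 8.62 CPM (7.34 to 10.0) of the Hist1h2ae cluster. In Olaparib + LLY-283 it was highest in the Cdc20 cluster, at 7.65 CPM (5.90 to 9.75).

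**Figure D5:**
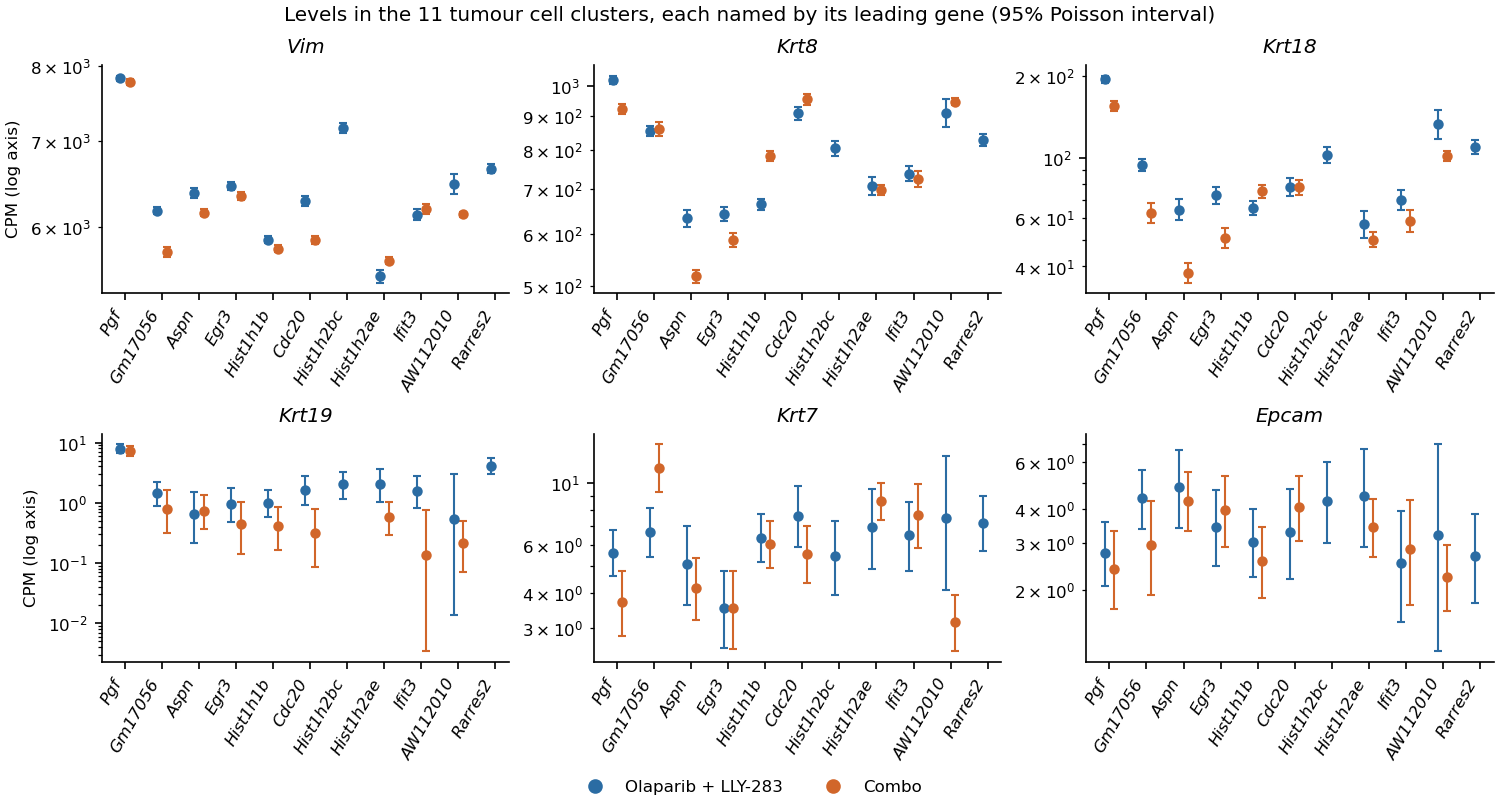
Levels of Vim, Krt8, Krt18, Krt19, Krt7 and Epcam (CPM, log axes that differ between panels, exact 95% Poisson intervals) in the 11 tumour cell clusters, each named by its leading gene, for libraries with at least 100 cells in the cluster. Krt19 and Krt18 stand highest in the Pgf cluster in both libraries, at 7.95 and 7.21 CPM and at 194 and 155 CPM.

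Further epithelial genes were present in part. Of a list of 35, 22 reached 20 UMIs over the tumour cells of both libraries. Cldn3, Dsg2 and Esrp1, which encode a claudin, a desmosomal cadherin and an epithelial splicing factor, had 0 UMIs in both libraries, the claudin genes Cldn7 0 and 1 and Cldn4 4 and 2, and the transcription factor gene Grhl2 9 and 3, named here after their values were seen. Against fibroblasts, 9 of 18 compared genes were over 2-fold higher and 2 lower in Olaparib + LLY-283 (median log2 ratio 0.97, against −0.14 over all genes), and 10 of 20 higher and 2 lower in Combo (1.16, against −0.13 over all genes). Of all genes compared, 9.63% were called higher and 21.5% lower in Olaparib + LLY-283, and 11.9% and 22.1% in Combo. A gene could reach 20 UMIs through the tumour cells alone, so some higher calls rest on few fibroblast UMIs. In Olaparib + LLY-283, Cgn had 132 UMIs against 0 (log2 ratio 1.59, lower limit −1.32) and F11r 1210 against 3 (1.97, 0.64 to 4.47). The interval of Jup (1.13 to 3.19) lay wholly past 2-fold there. Calls by interval were not counted over the list.

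Pkp3, a desmosomal plaque gene, stood at 13.3 and 15.3 CPM against 4.16 and 0.659 CPM in fibroblasts (5 and 1 UMIs). Itgb4, encoding the integrin chain of hemidesmosomes, stood at 16.7 and 21.4 CPM against 7.49 and 1.32 CPM. Spint2, encoding a protease inhibitor of epithelia, stood at 63.4 and 58.0 CPM against 21.6 and 11.9 CPM. The catenin genes Ctnna1 (224 and 228 CPM) and Ctnnb1 (99.988 and 103 CPM) and the tight junction gene Tjp1 (54.5 and 65.1 CPM) were, with Spint2, those with the most UMIs, and Ctnnb1 had log2 ratios of −0.93 and −0.91 over fibroblasts. Muc1, encoding a mucin, had log2 ratios of −2.35 and −2.67 with 3 and 4 fibroblast UMIs, and Cd24a, encoding a surface glycoprotein, −1.64 and 0.16 with 5 and 2. Against endothelial cells, 1 of 18 genes of the list was higher and 7 lower (median −0.75, against −0.56 over all genes) and 5 of 19 higher and 11 lower (−1.17, against −0.87). Of all genes compared, 5.14% were called higher and 37.1% lower in Olaparib + LLY-283, and 12.9% and 47.6% in Combo. Some of the list's calls came from 0 endothelial UMIs, such as Ocln lower (−3.85) and Itgb4 higher (2.52) in Combo. Their intervals include equal levels, so these calls give no direction. Between the libraries, 0 of 22 were past 2-fold in tumour cells, against 4.95% of all genes.

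The mesenchymal genes other than Vim were mostly below fibroblasts. Of 28 genes listed, 27 were compared, and 2 were over 2-fold higher and 19 lower in Olaparib + LLY-283 (median log2 ratio −2.11, against −0.14 over all genes, of which 9.63% were called higher and 21.5% lower), and 2 higher and 20 lower in Combo (−2.28, against −0.13 over all genes, 11.9% and 22.1%). Of the 28, 5 (Acta2, Col3a1, Thy1, Pdgfra and Pdgfrb) are among the markers by which clusters were named, and the last 4 named the fibroblasts, so their ratios are not independent of the naming. The genes higher in tumour cells were Acta2, encoding smooth muscle actin, at 1422 and 1139 CPM (log2 ratio 1.22 and 1.08), and S100a4, encoding a calcium-binding protein, at 1231 and 1276 CPM (1.04 and 1.48). Lgals1, encoding galectin-1, had the most UMIs of the list at 6819 and 6836 CPM (0.81 and 0.69). Col1a2, a collagen I chain, stood at 1587 and 1632 CPM in tumour cells, below 11613 and 14588 CPM in fibroblasts.

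Cdh11, encoding a mesenchymal cadherin, stood at 0.292 and 0.585 CPM in tumour cells (log2 ratio −7.14 and −7.42). Twist2, encoding a transcription factor, stood at 0.283 and 0.446 CPM (−7.33 and −7.05), and Thy1, a surface marker of fibroblasts, at 2.10 and 3.89 CPM (−7.38 and −6.85). Against endothelial cells, 1 gene of 27 was higher and 4 lower in Olaparib + LLY-283 and 17 higher and 6 lower in Combo (median 0.26 and 2.35, against −0.56 and −0.87 over all genes, of which 5.14% were called higher and 37.1% lower, and 12.9% and 47.6%). Of the endothelial cells, 17 of 44 in Olaparib + LLY-283 and 3 of 15 in Combo also met the tumour rule. Lgals1, for one, stood at 4477 and 853 CPM in endothelial cells. The part of the shared cells in these counts was not separated. Between the libraries 0 of 27 were past 2-fold, against 4.95% of all genes.

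Of 12 further keratins, 3 had enough UMIs to compare with fibroblasts. Krt16, an inducible type I chain of stratified epithelia, had 271 UMIs (2.55 CPM) and 165 UMIs (1.21 CPM) in tumour cells. It had 0 UMIs in fibroblasts and endothelial cells. The lower limits of its log2 ratios were −0.27 and −1.03 over fibroblasts and −2.58 and −4.53 over endothelial cells. Equal levels are thus not excluded. Krt80 stood at 2.91 and 2.57 CPM against 6.65 and 4.61 CPM in fibroblasts (8 and 7 UMIs), and Krt10, a chain of differentiated epidermis, at 0.085 and 0.212 CPM against 9.15 and 16.5 CPM. Krt15 had 11 and 3 UMIs in tumour cells. Between the libraries, Krt10 was past 2-fold higher in Combo (log2 ratio 1.27, 0.21 to 2.59, 29 against 9 UMIs) and Krt16 lower (−1.08, −1.37 to −0.80). Krt10 had 11 and 25 UMIs in fibroblasts, of which 62 and 35 cells also met the tumour rule. The part of these shared cells in the Krt10 UMIs of tumour cells was not separated.

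Of 12 other intermediate filament and linker genes, 11 were compared with fibroblasts, 3 were over 2-fold higher and 1 lower in Olaparib + LLY-283 and 2 higher and 0 lower in Combo (median log2 ratio 0.29 and 0.10, against −0.14 and −0.13 over all genes, of which 9.63% were called higher and 21.5% lower, and 11.9% and 22.1%). The lamin genes Lmna (797 and 720 CPM) and Lmnb1 (77.2 and 86.7 CPM), Plec, encoding plectin (229 and 218 CPM), and the linker gene Macf1 (110 and 135 CPM) had the most UMIs. Nes, encoding nestin, an intermediate filament that assembles with vimentin, was at 49.0 and 59.4 CPM against 15.8 and 5.93 CPM in fibroblasts and 120 and 479 CPM in endothelial cells. Ppl, encoding periplakin, stood at 6.42 and 4.88 CPM against 2 and 0 fibroblast UMIs, and Eppk1, encoding epiplakin, at 3.34 and 3.15 CPM against 0 and 2. Synm, encoding synemin, stood at 5.35 and 3.94 CPM against 17.5 and 6.59 CPM in fibroblasts, and Des, the desmin gene of muscle and a cluster marker, at 1.11 and 0.702 CPM against 0.832 and 0.659 CPM (1 UMI each). Between the libraries, 0 of these 11 genes were past 2-fold in tumour cells, against 4.95% of all genes.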

How the data were processed

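Single-cell RNA libraries (3′ UMI counting) of EMT6 tumours were analysed from the deposited counts. Per the labels and file headers, the authors aligned reads to mm10 with Cell Ranger (the matrix header gives 6.1.2), and the deposited UMI counts per gene and cell were not normalized. The submitters' processing notes also name bcl2fastq 5.0.1 and Seurat 4.1.0.

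The libraries held 16115 cells (147214934 UMIs, Olaparib + LLY-283) and 7542 cells (162522700 UMIs, Combo). A cell was kept if it had 200 genes or more and less than 20% of its UMIs from mitochondrial genes (86 and 1586 left out). The doublet caller Scrublet called 0 cells at its own threshold, so the highest-scoring 2056 (12.8%) and 269 (4.52%) cells, at an assumed rate of 0.8% per 1000 cells, were left out. Both libraries were clustered together with scanpy 1.11.5 (2000 variable genes without the 10 genes, 30 components, 20 neighbours, Leiden resolution 1.3), giving 22 clusters, 13 of them unnamed. Ratios are log2 of CPM with 0.5 UMIs added. Statistics used Python 3.11.15, numpy 2.4.6, scipy 1.17.1 and pandas 2.3.3.

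The 10 genes, the gene lists and the tumour rule were chosen with earlier results of these data known. The genes named from each list were the 4 with the most UMIs in tumour cells and the 3 with the highest and lowest mean ratio over fibroblasts. For likeness, up to 3 genes by the smaller r of the libraries were named at r of 0.2 or more, and the 5 leading genes of a cluster were those with the largest fold over the other tumour clusters. Of the planned processing alternatives, 22 were run, and 3 were added after seeing the data. On simulated counts, 199 of 200 genes changed 4-fold between the libraries were recovered (17225 unchanged genes, 0.842% called), and 200 of 200 between tumour cells and fibroblasts of Olaparib + LLY-283 (15259 unchanged genes, 13.8% called). Of the 2111 unchanged genes called in the comparison with fibroblasts, 1584 were called lower. The changed genes were drawn from those expected to hold at least 20 UMIs in each set. The recovery therefore does not cover calls that rest on fewer UMIs in a set, such as those with at most 1 fibroblast UMI.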

Additional observations from a re-analysis of the deposited data

Results flagged for a closer look

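Vim in tumour cells against endothelial cells went opposite ways in the libraries, with log2 ratios of 0.13 in Olaparib + LLY-283 and −0.16 in Combo. The difference was not tested, the Combo ratio was 0.23 with the mean of single-cell CPM, and the sets of endothelial cells held 44 and 15 cells. Cells left out of the analysis also carried some of the 10 genes. In the 1586 Combo cells with 20% or more mitochondrial UMIs or under 200 genes, which had a median of 746 UMIs and of which 76 met the tumour rule, Vim stood at 2620 CPM, Krt8 at 385 CPM, Krt18 at 38.0 CPM, Krt7 at 2.87 CPM and Krt19 at 2.87 CPM. Each was above 2.65 CPM, the exact upper limit for a count of 0.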

How the results depend on the processing

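No paired analysis was possible because each group was 1 library. Of the log2 ratios of genes that the tumour rule did not use and that had UMIs in both sets, 9 were past 2-fold, and of their 140 values under the alternatives 134 were also past 2-fold and 140 had the same sign. A further ratio past 2-fold changed sign, Krt7 in tumour cells over endothelial cells of Olaparib + LLY-283. It was −0.14 when fibroblasts and endothelial cells that met the tumour rule were left out, where endothelial cells had 0 Krt7 UMIs. Some ratios within 2-fold also changed sign. In Olaparib + LLY-283, Epcam over endothelial cells went from 0.77 to −0.97, Krt19 over endothelial cells from 0.48 to −1.26 and Krt7 over fibroblasts from 0.21 to −0.59. Epcam over fibroblasts of Combo went from 0.91 to −0.13, and Cdh1 between the libraries from 0.68 to −0.08. The number of genes called higher than in fibroblasts was 1 in Olaparib + LLY-283. It became 0 with no limit on mitochondrial UMIs, with doublets kept or with the interval wholly past 2-fold, and 2 with the mean of single-cell CPM or without the rule cells. In Combo, 2 became 1 without the rule cells and 0 by the interval. Over endothelial cells of Olaparib + LLY-283, 1 became 0 without the rule cells and 0 by the interval. The 2 genes past 2-fold between the libraries became 1 with a keratin limit of 4 or of 1 UMI, no immune UMI, rule cells outside named clusters, clusters with over 50% rule cells, the mean of single-cell CPM or at least 100 UMIs, and 0 by the interval. The causes were not tested beyond the counts given in the report.

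The share of tumour cells with Vim and a keratin was 96.8% in Olaparib + LLY-283, and 98.1% and 95.5% with keratin limits of 4 and 1, 93.9% in clusters with over 50% rule cells, 59.2%, 99.6% and 99.9582% at 1000 UMIs, at 10000 and with no thinning. In Combo it was 93.2%, and 91.6% under 10% mitochondrial UMIs, 92.2% with doublets kept, 91.2% with a keratin limit of 1, 92.0% in the clusters, and 51.5%, 98.3% and 99.9% by depth. The log2 ratio of Krt19 over fibroblasts ranged from −3.54 to −1.86 in Olaparib + LLY-283 and from −5.53 to −0.91 in Combo, and that of Krt19 between the libraries from −1.53 to −0.91. Depth limits Cdh1, Cdh2 and Krt5 in tumour cells and most genes in the small sets of fibroblasts and endothelial cells.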

Other observations

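Other cadherins were looked at after the values of Cdh1 and Cdh2 had been seen. Of 28 cadherin genes in the files, 17 and 15 had a UMI in tumour cells. Those with the most UMIs there were Cdhr1, at 1305 and 1291 UMIs (12.3 and 9.45 CPM), Cdh17, encoding a cadherin of intestinal epithelium, at 588 and 907 UMIs (5.54 and 6.64 CPM), and Cdh24, at 397 and 489 UMIs (3.74 and 3.58 CPM), all above Cdh1 and Cdh2. In fibroblasts the mesenchymal gene Cdh11 had 50 and 153 UMIs (41.6 and 101 CPM), and in endothelial cells Cdh13 had 57 and 83 UMIs (235 and 621 CPM).

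Of 55 keratin genes and pseudogenes in the files, 24 and 21 had a UMI in tumour cells. The pseudogene Krt8-ps had 28 and 39 UMIs there, and its reads could be shared with Krt8.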
